A study of Mus musculus with 8 samples.

Results

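The SR splicing factors and the hnRNP proteins were followed in pancreatic lymph nodes of mice lacking Deaf1. The members were all array probes, controls left out, whose gene name in the scanner files began with Sfrs, Srsf, Hnrp or Hnrnp, the old and new names of both families. The rule took 83 of the 41174 probes, for 36 of 27745 gene names, and 81 of these probes for 35 genes passed a filter on dim spots and were tested. The probes that did not pass were 1 of the 4 probes of Hnrnpul1 and the only probe of Hnrnpul2. The prefix also takes SR-related genes that have since been renamed: Sfrs8 is now Sfswap, Sfrs11 is Srsf11, Sfrs12 is Srek1, Sfrs14 is Sugp2, Sfrs15 is Scaf4, Sfrs16 is Clasrp and Sfrs2ip is Scaf11, while Sfrs10 (Tra2b) is given here by the name in the files.

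Each of 8 two-colour arrays set total RNA of a Deaf1 knockout pancreatic lymph node (Cy5) against RNA of a pool of wild-type littermate nodes of the same age (Cy3), all on the BALB/c background and kept free of pathogens. There were 2 arrays at 4 weeks of age with pools of 2 wild-type mice, and 3 arrays each at 12 and at 30 weeks with pools of 3. The labels name neither the deleted part of Deaf1 nor whether the arrays of an age shared a pool, the dyes were never swapped, and no array held a single wild-type mouse. A dye bias and the spread among controls are therefore in no test, and a difference between ages is also a difference between pools. In whole nodes, a change in the make-up of the cells and a change of RNA per cell cannot be told apart.

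SR proteins carry RNA recognition motifs and a domain rich in arginine and serine, bind enhancer sequences in exons and recruit the splicing machinery. Most hnRNP proteins coat nascent transcripts and often act against exon inclusion, so that the balance of both families sets which exons are kept. In lymphocytes these choices include the exons of Ptprc (CD45), which hnRNP L and hnRNP LL control. Many genes of both families also limit their own mRNA through alternatively spliced exons that lead to decay, so that probes at different places in a gene can read different transcripts. Deaf1 is a transcription factor with a SAND domain that binds TTCG sequences and is known for its role in the expression of tissue antigens in this node.

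Of all probes, 46.8% to 71.4% lay well above background in the knockout channel and 37.2% to 62.6% in the wild-type channel, and of the member probes 90.4% to 97.6% and 81.9% to 97.6%. Markers of T cells and B cells, the main cells of a lymph node, lay well above background on all arrays for 8 of 8 and 8 of 8 genes in the knockout channel and for 8 of 8 and 7 of 8 in the wild-type channel. The Deaf1 probes past the filter gave log2 ratios of -0.22 to 0.35 (first) and -0.74 to 3.11 (second, the 3.11 on replicate 2 of 30 weeks), and since the deleted part is not named they check no label. Some arrays stood apart. Pancreatic acinar markers (12 genes) had a median log2 ratio of -4.17, 4.06 and -4.54 in replicates 1 to 3 of 30 weeks and -1.56 and -0.46 in those of 4 weeks. Fat-cell markers (9 genes) had -1.55 and -0.61 at 4 weeks, -1.53, -1.60 and -0.04 at 12 weeks and -0.06, -0.41 and 0.41 at 30 weeks. The median ratio of stress and immediate-early genes (9 measured) was 1.06, -0.65 and 1.46 in the replicates of 12 weeks, and an Xist probe read 5.32 in replicate 2 of 12 weeks against -0.40 and 0.33 in replicates 1 and 3. The part of these differences in the results below was not tested.

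Knockout over wild-type ratios are log2 values from limma, given with the standard error of its fit, and a probe is called at a Benjamini-Hochberg adjusted p under 0.05 over all 27464 probes tested. At 4 weeks 34 member probes rose and 2 fell, where 13.3% of all probes rose and 5.92% fell (19.2% together). At 12 weeks 2 rose and 5 fell (1.51% and 1.84% of all probes, 3.35% together). At 30 weeks 33 rose and 21 fell (19.5% and 20.6% of all probes, 40.1% together). In percent of the tested members, the rises were 42.0% at 4 weeks and 40.7% at 30 weeks and the falls were 2.47% and 25.9%, so that the share of members that rose lay above that of all probes at both ages, while the share that fell lay below it at 4 weeks and somewhat above it at 30 weeks. More of the members than of all probes were bright. Among the 14973 probes well above background in both channels of all arrays, 34 of 68 members rose at 4 weeks where 23.0% of such probes rose, and at 30 weeks 29 rose and 18 fell where 25.4% rose and 27.5% fell. Among these bright probes the members' share of falls at 30 weeks, 26.5%, was near that background, and their share of rises, 42.6%, was above it.

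**Figure D1:**
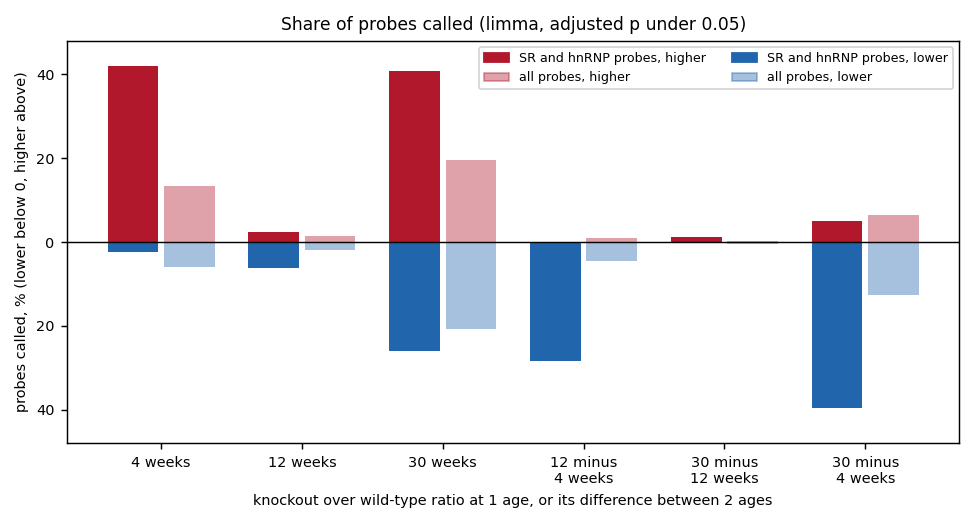
Percent of probes called higher (red, above 0) and lower (blue, below 0) in knockout over wild-type ratio at each age and in its difference between ages, for the 81 SR and hnRNP probes (full colour) and all 27464 probes (pale). The members' rises at 4 and 30 weeks and their falls in the differences from 4 weeks stand above the pale bars.

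The median ratio of the members was 0.44 and 0.21 on the arrays of 4 weeks, 0.12, 0.05 and 0.03 on those of 12 weeks and 0.18, 0.07 and 0.12 on those of 30 weeks, against medians over all probes of -0.01 to 0.03. The members thus lay highest at 4 weeks, and 64 and 63 of the 81 were above 0 on its arrays. Replicate 1 of 4 weeks, with the higher member median, also had the lower acinar and fat-cell markers of the pair given above, and their part in the members' rise was not tested. Over all ages, 18 member probes were above 0 on 8 of 8 arrays (22.2%, against 10.2% of all probes) and 8 were below 0 on 8 of 8 (9.88%, against 7.36%).

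**Figure D2:**
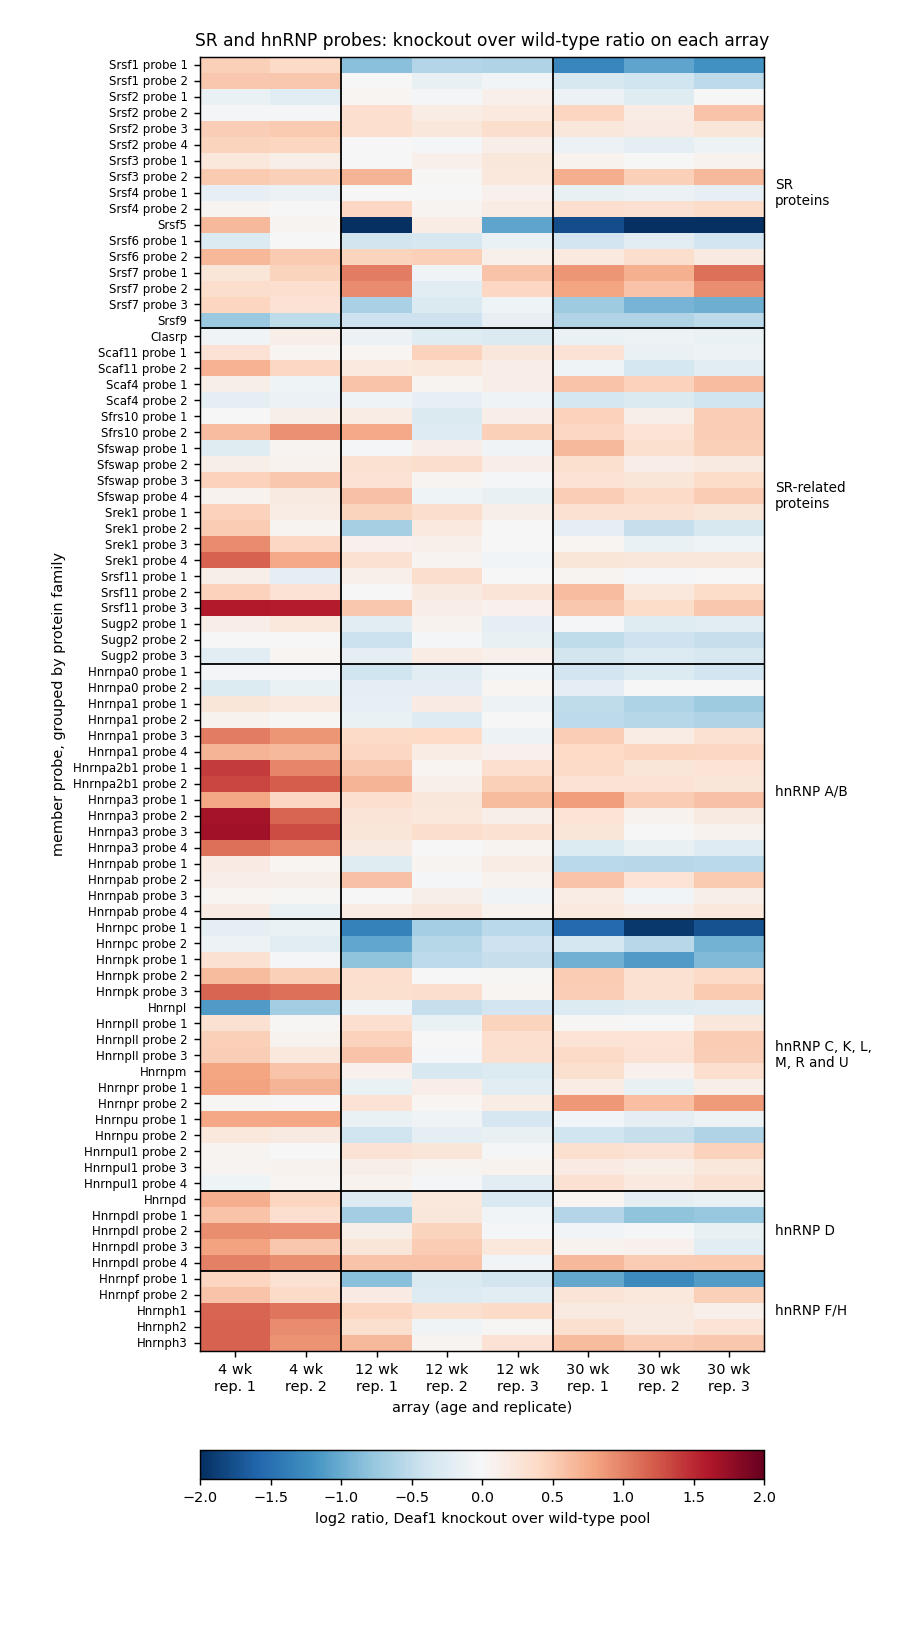
Log2 ratio of Deaf1 knockout over wild-type pool for the 81 tested member probes (rows, by family, probes numbered from the 5′ end of the gene) on the 8 arrays (columns, by age and replicate), with values beyond 2 in size drawn in the end colour. At 4 weeks 34 probes rose and 2 fell, while at 30 weeks probes of the same gene often differ in colour.

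At 4 weeks the rises were spread over 22 genes and, counted by probe, were densest among the hnRNP A/B, D and F/H proteins. Probes of the same gene are not separate evidence, and counted by gene the A/B group did not stand out. The A/B rises came from Hnrnpa1, Hnrnpa2b1 and Hnrnpa3, with no call in Hnrnpa0 or Hnrnpab. Rises among the SR-related genes came from Scaf11, Sfrs10, Sfswap, Srek1 and Srsf11, and 3 of the hnRNP D rises came from Hnrnpdl. Of 16 hnRNP A/B probes 8 rose, of 5 hnRNP D probes 4, of 5 hnRNP F/H probes 4, of 17 probes of hnRNP C, K, L, M, R and U 5, of 17 SR probes 6 and of 21 SR-related probes 7. The family medians were 0.41, 0.67, 1.03, 0.17, 0.35 and 0.16 in that order, where the median of all probes was 0.03. Of all probes 13.3% rose. Without replicate 1 of 4 weeks 12 member probes were called, and 1.9% of all probes. Centring arrays on their median in place of loess gave 64 higher and 0 lower, with the median of all probes at 0.39. The array as a whole was thus shifted up in that fit. Its share of calls is not given here, so the count is no result about the members.

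Among the SR-related genes, the 3′-most probe of Srsf11, which encodes a factor that contacts the early splicing machinery at the 3′ splice site, had the largest ratio. It read 1.59 and 1.56 on the arrays of 4 weeks, a mean of 1.58 ± 0.11 (adjusted p = 0.000405, limma). Its log2 levels were 13.41 and 14.37 in knockout nodes, against 11.81 and 12.80 in wild-type pools, with no overlap within an array pair or between the groups. The other Srsf11 probes read 0.12 and -0.19 (probe 1, not called) and 0.45 and 0.29 (probe 2, called at an adjusted p of 0.0443), so that the gene's own probes spanned 1.61 log2 units. Probes 3 and 4 of Srek1, a regulator of other SR proteins, rose by 0.68 ± 0.12 and 0.97 ± 0.12, and probe 2 of Sfrs10, the splicing activator Tra2b, rose by 0.77 ± 0.20. Probes 1 and 2 of Srek1 (0.31 and 0.28) and probe 1 of Sfrs10 (0.05) were not called.

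In the hnRNP A/B group, which packages pre-mRNA and silences exons, all 4 probes of Hnrnpa3 rose. They read 0.77 and 0.42, 1.67 and 1.16, 1.68 and 1.30, and 1.11 and 0.98 in order from the 5′ end, with means of 0.59, 1.41, 1.49 and 1.04. Both probes of Hnrnpa2b1, whose protein also carries mRNA within the cell, rose: they read 1.40 and 0.97 (mean 1.19 ± 0.13, adjusted p = 0.000981, limma) and 1.33 and 1.22 (mean 1.27 ± 0.12, adjusted p = 0.000542). The 2 probes at the 3′ end of Hnrnpa1 rose by 0.95 and 0.67, while its 5′ probes read 0.22 and 0.05 and were not called. Hnrnpa1 and Hnrnpa3 have near-identical processed copies in the genome, and whether their probes also read those was not tested.

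Hnrnph1, Hnrnph2 and Hnrnph3, which bind runs of G, had 1 probe each and rose together, by 1.11 ± 0.07, 1.06 ± 0.11 and 1.03 ± 0.13. Their arrays read 1.16 and 1.06, 1.17 and 0.94, and 1.18 and 0.89. Of the third probe of Hnrnpk, a protein of C-rich sequences, the arrays read 1.17 and 1.11 (1.14 ± 0.10, adjusted p = 0.000467, limma). Probe 1 of Hnrnpu (0.77 ± 0.08), probe 1 of Hnrnpr (0.75 ± 0.11), Hnrnpm (0.68 ± 0.12), Hnrnpd (0.58 ± 0.13) and 3 of the 4 probes of Hnrnpdl (0.92, 0.67 and 0.97) also rose. Probe 2 of Hnrnpu (0.19), probe 2 of Hnrnpr (0.02) and probe 1 of Hnrnpk (0.14) were not called, while probe 2 of Hnrnpk rose by 0.56.

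The falls at 4 weeks were those of Hnrnpl and Srsf9. Hnrnpl, a regulator of CD45 exons in T cells, read -1.14 and -0.69 (-0.91 ± 0.12, adjusted p = 0.00202, limma), with log2 levels of 9.44 and 10.75 in knockout nodes, against 10.58 and 11.44 in wild-type pools. Knockout lay lower within each array, while the groups overlapped across arrays. Srsf9 read -0.74 and -0.51 (-0.62 ± 0.09, adjusted p = 0.00301), and with arrays centred on their median in place of loess its ratio was 0.30, which was not called. For Hnrnpll, the close relative of Hnrnpl, the 3 probes read 0.17, 0.27 and 0.36 on average and none was called at 4 weeks.

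At 12 weeks few members passed the test and most of those fell. Hnrnph1 read 0.44, 0.32 and 0.38 (0.38 ± 0.06, adjusted p = 0.0262, limma) and probe 3 of Srsf2, an SR protein long used as a marker of nuclear speckles, read 0.33, 0.23 and 0.36 (0.31 ± 0.06, adjusted p = 0.0357). Hnrnpc, which binds uridine tracts of nascent transcripts, fell at both probes, with arrays at -1.36, -0.68 and -0.54 (-0.86 ± 0.14) and at -1.04, -0.58 and -0.41 (-0.68 ± 0.13). Every array lay below 0, and replicate 1 lay lowest in both.

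Probe 1 of Srsf1, the founding SR protein, read -0.84, -0.59 and -0.60 (-0.68 ± 0.08, adjusted p = 0.0113, limma). Probe 1 of Hnrnpk (-0.60 ± 0.09) and probe 1 of Hnrnpf (-0.50 ± 0.11) fell as well. Probe 2 of Srsf1 (-0.07), probes 2 and 3 of Hnrnpk (0.11 and 0.24) and probe 2 of Hnrnpf (-0.10) were not called. Nor were probes 1, 2 and 4 of Srsf2 (0.03, 0.22 and 0.04). None of the 7 calls of 12 weeks stood in all 8 repeats without 1 array. That of Srsf1 was lost in 1 of 8 and those of Hnrnpf, Srsf2 and the second Hnrnpc probe in 7 of 8. At an unadjusted p under 0.05, 39 of the 81 members passed at 12 weeks, against 26.1% of all probes.

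Without replicate 1 of 12 weeks 0 member probes were called by limma, and without replicate 2 there were 18. Replicate 2 differed most from the other 2 in several members. Srsf5 read -2.14, 0.15 and -1.05 in replicates 1 to 3 and was not called, with log2 levels of 9.05, 11.35 and 10.11 in knockout nodes, against 11.19, 11.20 and 11.16 in wild-type pools. The wild-type levels were close to each other, and the spread of this gene lay in the knockout channel. Centring on the median turned the split at 12 weeks to 61 higher and 1 lower, with a median over all probes at 0.34. The authors' own values and the scanner's log ratio each gave 0 higher and 2 lower. The shares of all probes in these repeats and fits are not given here, so the counts are no result about the members.

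At 30 weeks the members moved both ways. The rises lay in 22 genes and the falls in 17, and the same count over all genes was not made. Of the 17 SR probes 7 rose and 6 fell, of the 21 SR-related 9 and 4, and of the 16 hnRNP A/B 5 and 5. Of the 17 probes of hnRNP C, K, L, M, R and U 8 rose and 4 fell, of the 5 of hnRNP D 1 and 1, and of the 5 of hnRNP F/H 3 and 1. Of all probes 19.5% rose and 20.6% fell. The falls of the SR-related and hnRNP F/H probes and both counts of hnRNP D were near these shares. Centring on the median gave 38 higher and 9 lower with the median of all probes at 0.11, and the scanner's log ratio 25 higher and 19 lower. Without replicate 3 of 30 weeks 29 members were called, and without replicate 1, which leaves the arrays of 1 slide, 32. For these fits and repeats the shares of all probes are not given here, so their counts are no result about the members.

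The largest fall was that of Srsf5, an SR protein that activates exons, with 1 probe whose 60 bases map over 650 bases of the genome and so across a splice junction. It read -1.77, -2.07 and -2.06 (-1.97 ± 0.33, adjusted p = 0.00253, limma), with log2 levels of 9.77, 9.42 and 9.39 in knockout nodes, against 11.54, 11.48 and 11.45 in wild-type pools. The groups did not overlap. The probe, printed whole with G and C in capitals, maps to the plus strand within chr12:81865567-81866216 (mm8, per the file headers of 4 weeks):
Srsf5: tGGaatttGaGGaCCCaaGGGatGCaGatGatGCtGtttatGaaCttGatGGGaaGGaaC

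Hnrnpc followed, with -1.56, -1.92 and -1.74 at probe 1 (-1.74 ± 0.14, adjusted p = 0.000394, limma) and -0.36, -0.56 and -0.95 at probe 2 (-0.62 ± 0.13). At probe 1 the log2 levels were 10.11, 9.76 and 9.97 in knockout nodes, against 11.67, 11.68 and 11.71 in wild-type pools. Srsf1 fell at both probes too, with -1.31, -1.06 and -1.21 at probe 1 (-1.19 ± 0.08, adjusted p = 0.000363) and -0.32, -0.40 and -0.53 at probe 2 (-0.42 ± 0.06). In both genes the probe nearer the 5′ end had the larger fall. Srsf9 read -0.60, -0.61 and -0.52 and fell by 0.58 ± 0.07.

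**Figure D3:**
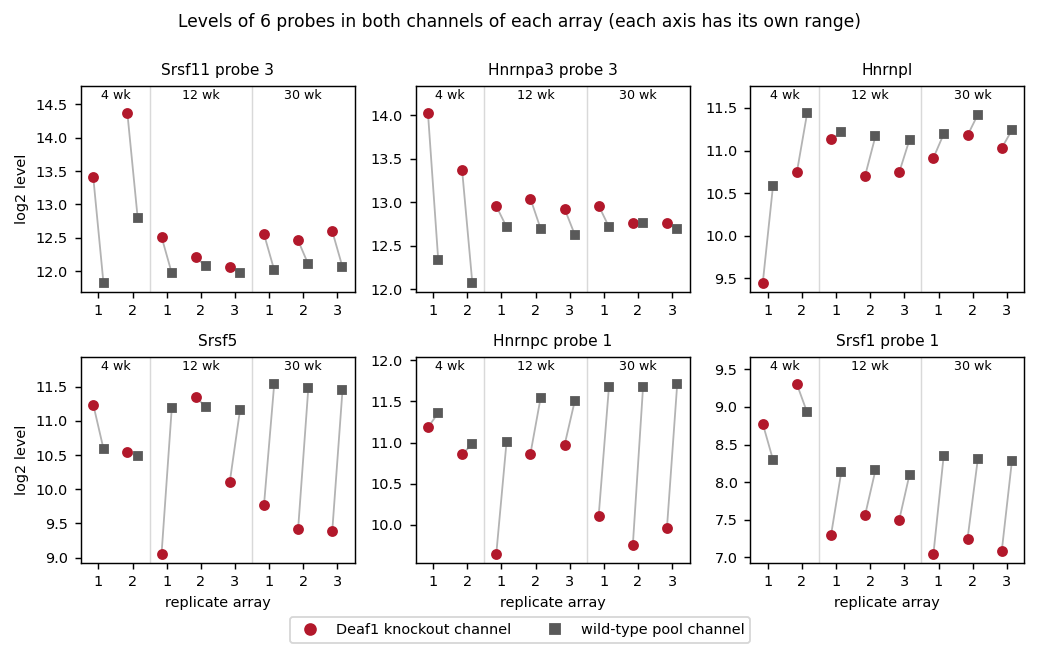
Log2 level (vertical axes, each with its own range) of 6 probes in the Deaf1 knockout channel (red circles) and the wild-type pool channel (grey squares) of each array, by age and replicate, lines joining the channels of an array. Srsf11 and Hnrnpa3 are raised in knockout at 4 weeks, and for Srsf5, Hnrnpc and Srsf1 the knockout points lie below all wild-type points at 30 weeks.

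Among the rises at 30 weeks, 2 probes of Srsf7, an SR protein that shuttles to the cytoplasm and takes part in mRNA export, read 0.88, 0.71 and 1.11 (0.90 ± 0.17, adjusted p = 0.00398, limma) and 0.79, 0.58 and 0.94 (0.77 ± 0.18). Their sites overlap in the gene, so they are not separate evidence. Probe 2 of Hnrnpr, a relative of Syncrip, read 0.86, 0.60 and 0.85 (0.77 ± 0.08, adjusted p = 0.000532). Probe 1 of Hnrnpa3 (0.64 ± 0.10), probe 2 of Srsf3 (0.62 ± 0.11), the smallest SR protein, and Hnrnph3 (0.56 ± 0.11) came next, each above 0 on all 3 arrays. Probe 1 of Hnrnpr (0.04), probe 1 of Srsf3 (0.04) and probes 2 and 3 of Hnrnpa3 (0.17 and 0.11) were not called, and probe 4 of Hnrnpa3 fell (-0.23).

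The slides of the arrays bear on this age. Slide 1 held the arrays of 4 weeks, read by a scanner of their own, slide 2 held those of 12 weeks with replicate 1 of 30 weeks, and slide 3 held replicates 2 and 3 of 30 weeks. With slide as a fixed block 5 members were called at 30 weeks (1.49% of all probes), a fit in which the value of 30 weeks rests on replicate 1 alone. Of the 12 named calls of 30 weeks, those of Hnrnpc, Srsf1, Hnrnpf, Hnrnpk and Hnrnpr kept their call in it. Of 2 probes of 18S ribosomal RNA (Rn18s), one read 0.10 and -0.12 at 4 weeks, 0.96, 1.21 and 1.32 at 12 weeks and 1.24, 2.34 and 1.23 at 30 weeks. The other read -0.19 and -0.04 at 4 weeks, 0.79, 0.26 and 0.29 at 12 weeks, where it was not called, and 0.83, 1.53 and 0.99 at 30 weeks. T-cell and B-cell markers had median ratios of -0.34 and -0.43 at 30 weeks. The part of these values in the members' changes was not tested.

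Between ages, the ratio of 23 members was lower at 12 than at 4 weeks and that of 0 was higher (limma; 4.57% and 1.03% of all probes, 5.6% together; 40 members at an unadjusted p under 0.05 in either direction). The largest called differences were those of Srsf11 probe 3 (-1.32 ± 0.15), Hnrnpa3 probes 2, 3 and 4 (-1.22, -1.20 and -0.97), Srsf1 probe 1 (-1.11 ± 0.12) and Hnrnph2 (-0.97 ± 0.14). In each of these the arrays of 12 weeks lay below both arrays of 4 weeks. Without replicate 1 of 4 weeks 0 of these differences were called, and replicate 2 of 4 weeks then stood alone and was taken to vary like the other ages. Left out in turn, 4-week replicate 2 and 12-week replicate 3 left 15 and 12 calls, and 30-week replicate 3, which only lends its spread, left 15.

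From 4 to 30 weeks, the ratio of 32 members was lower and that of 4 higher at 30 weeks (12.6% and 6.52% of all probes, 19.1% together). Srsf5 differed by -2.32 ± 0.53, Srsf1 probe 1 by -1.62 ± 0.12, Hnrnpc probe 1 by -1.59 ± 0.22, Hnrnpf probe 1 by -1.51 ± 0.17 and Hnrnpa3 probes 3 and 4 by -1.39 ± 0.13 and -1.27 ± 0.10. The 4 that were higher were probe 2 of Hnrnpr (0.75 ± 0.12), Hnrnpl (0.67 ± 0.16), probe 1 of Sfswap (0.57 ± 0.14) and probe 1 of Scaf4 (0.54 ± 0.16). Scaf4 probe 1 was not well above background in either channel at 4 weeks, so its value is a fitted one. The call of Scaf4 probe 1 was lost in 6 of the 8 repeats without 1 array, those of Hnrnpl, Sfswap probe 1 and Srsf5 in 3 of 8 each and that of Hnrnpr probe 2 in 1, while those of Srsf1, Hnrnpc, Hnrnpf and Hnrnpa3 named here stood in all 8. Without replicate 1 of 4 weeks 14 members were called in this difference.

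Between 12 and 30 weeks 1 member differed, probe 2 of Hnrnpr (0.61 ± 0.11, adjusted p = 0.0459, limma; 0.353% of all probes were higher and 0.473% lower, 0.827% together). Its 12-week arrays read 0.30, 0.04 and 0.14, below its 30-week arrays, and in 6 of the 8 repeats without 1 array it was not called. Without replicate 1 of 12 weeks there were 23 member calls in this difference, where all probes gave 14.8%.

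Some members were called at more than 1 age, and few in opposite directions at the youngest and oldest age. Of the 81 probes, 16 rose both at 4 and at 30 weeks (19.8%, against 5.54% of all probes), and 5 fell both at 12 and at 30 weeks (6.17%, against 1.40%). A further 4 rose at 4 weeks and fell at 30 (4.94%, against 1.77%), which were both probes of Srsf1, probe 4 of Hnrnpa3 and probe 2 of Scaf11. These joint shares were not tested. The members' single shares of rises at 4 and 30 weeks and of falls at 12 and 30 weeks already lay above those of all probes. A higher joint share is therefore no result of its own. Srsf1 probe 1 read 0.48 and 0.38 at 4 weeks, so its arrays lay on one side of 0 at 4 weeks and on the other at 12 and 30 weeks.

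Probes of the same gene disagreed at 30 weeks. Of 26 genes with 2 or more tested probes, 9 had probes called in opposite directions (34.6%), where 10.7% of 6239 genes with 2 or more probes did. At 4 and at 12 weeks 0 member genes did, with 9 and 1 of them holding 2 or more called probes, and 0.256% and 0.0321% of the 6239 genes did, so that the 0 is no result about the members. Opposite calls need 2 called probes. Among genes with 2 or more called probes at 30 weeks, 35.8% of 1869 over the array had opposite calls, and 9 of 17 member genes did. The difference between these shares was not tested, and the genes were not matched for their number of tested probes. A gene with more probes has more ways to hold opposite calls. The 9 were Hnrnpa1, Hnrnpa3, Hnrnpab and Hnrnpdl with 4 tested probes each, Hnrnpk and Srsf7 with 3, and Hnrnpf, Scaf4 and Srsf6 with 2.

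**Figure D4:**
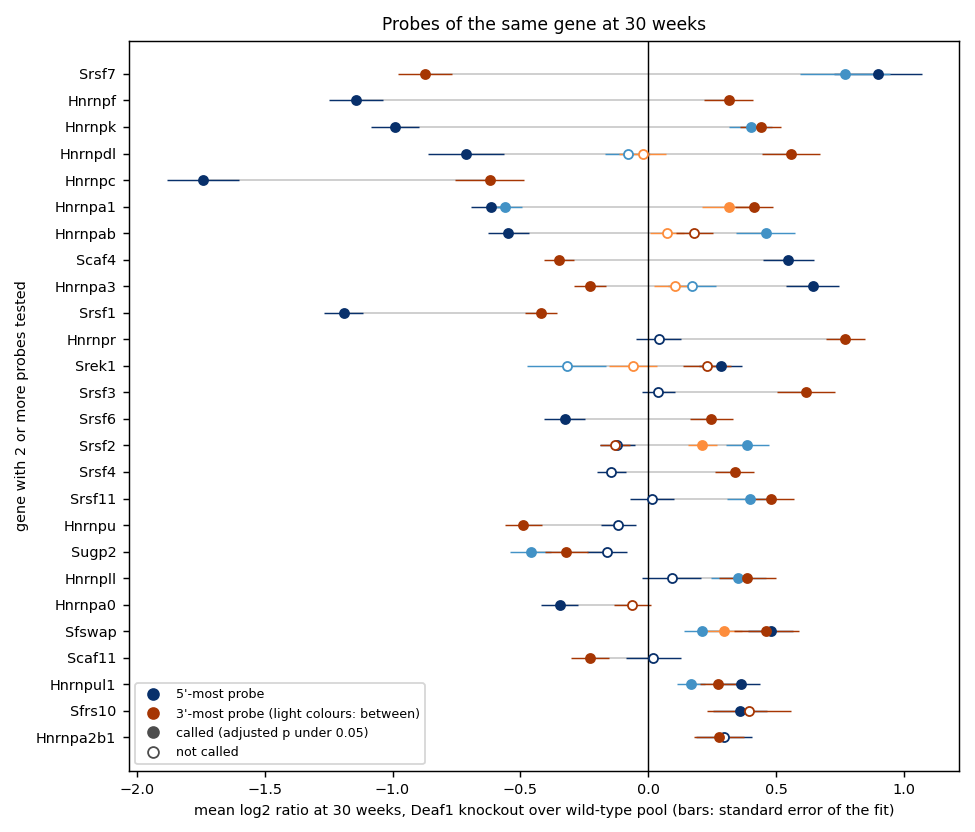
Mean log2 ratio at 30 weeks (horizontal axis, bars the standard error of the fit) of every tested probe of the 26 member genes with 2 or more probes, coloured from the 5′-most (dark blue) to the 3′-most (brown), filled where called. In Hnrnpf, Hnrnpk and Hnrnpa1 the 5′ probes lie below 0 and the 3′ probes above, and in Srsf7 the order is turned.

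The probes of Hnrnpk, Hnrnpf and Srsf7 show the disagreement most fully, and the first 30 of their 60 bases are printed with G and C in capitals, since ratios were lower in probes richer in GC on every array (r of -0.32 to -0.12 over all probes). Positions are those of the 4-week files (mm8). The 3 probes of Hnrnpk lie on the minus strand at chr13:58409517-58409576, chr13:58401626-58401685 and chr13:58400960-58401019, those of Hnrnpf on the plus strand at chr6:117889534-117889593 and chr6:117891108-117891167, and those of Srsf7 on the minus strand at chr17:80109686-80109745, chr17:80109646-80109705 and chr17:80109291-80109350.
Hnrnpk probe 1: CtttaaaaGatCtaGaaataCtGatGaGat
Hnrnpk probe 2: GGaGGaaaGtaataGtCCaCatGtCCCtGG
Hnrnpk probe 3: aaGatGtaCCatttCtCtGttGtGtGttGa
Hnrnpf probe 1: GaGtGGtGaGGCttttGttGaaCttGaGtC
Hnrnpf probe 2: aGGaattGGtGaGGCCttGaCttaaaGCtt
Srsf7 probe 1: tCtGtaaaattCaCaGCaGtaaatattGtt
Srsf7 probe 2: tattaaCatCttatGGtCtGaaaatGtGGG
Srsf7 probe 3: GGaattGtCaaGCttaGaGGGaCCaCtGat

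The first Hnrnpk probe read -0.96, -1.14 and -0.88 at 30 weeks, the second 0.51, 0.30 and 0.39 and the third 0.49, 0.31 and 0.53, all 3 called. Their GC content was 35.0%, 45.0% and 35.0% in that order. In Hnrnpf, whose protein binds runs of G like that of Hnrnph1, probe 1 (38.3% GC) read -1.03, -1.28 and -1.12 and probe 2 (40.0% GC) 0.26, 0.22 and 0.47. In Srsf7 probes 1 and 2 (28.3% and 25.0% GC) rose, while probe 3 (41.7% GC) read -0.71, -0.92 and -0.98 (-0.87 ± 0.10, adjusted p = 0.000819, limma), so that here the probe at the 3′ end was the low one.

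The difference of the log2 ratio between the 3′-most and the 5′-most probe of a gene was fitted with limma over 5832 genes whose probes lie 100 to 2000000 bp apart, a test added after the values were seen. At 30 weeks 14 of 26 member genes had the 3′ probe higher and 5 had it lower, where 35.3% and 19.6% of all genes did, 54.9% together. The median difference was 0.29 in the members and 0.10 over all genes. At 4 weeks 9 were higher and 2 lower (17.2% and 4.77% of all genes, 21.9% together) and at 12 weeks 3 and 1 (7.37% and 3.45%, 10.8% together). At 4 and 30 weeks the 3′ probe was thus called higher more often than lower over all genes too. At 12 weeks this rested on replicate 1: without it 40 of the 5832 genes had the 3′ probe higher and 28 lower, against 430 and 201 with it, and the median difference over all genes was 0.136 in replicate 1, 0.024 in replicate 2 and 0.022 in replicate 3. With that array left out, 1 member gene was called at 12 weeks.

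Hnrnpf had the largest such difference at 30 weeks, with 1.29, 1.49 and 1.59 on the arrays (1.46 ± 0.16), followed by Hnrnpk (1.43 ± 0.11), Hnrnpdl (1.27 ± 0.18), Hnrnpc (1.12 ± 0.11) and Hnrnpa1 (1.03 ± 0.11). Hnrnpk differed at every age, by 1.00 ± 0.14 at 4 weeks and 0.84 ± 0.11 at 12 weeks. The lowest were Srsf7 (-1.77 ± 0.22), Scaf4 (-0.90 ± 0.11) and Hnrnpa3 (-0.87 ± 0.11). Hnrnpr differed by -0.73 ± 0.12 at 4 weeks and by 0.73 ± 0.10 at 30 weeks, and Srsf11 had its largest difference, 1.61 ± 0.14, at 4 weeks. With the ratios adjusted for the GC content of probes, the members' median at 30 weeks was 0.09 with 12 genes higher and 4 lower, and 0.06 over all genes. With probes of RefSeq accessions alone, 8 member genes were left, of which 4 were higher and 3 lower at 30 weeks. Their median was then 0.14, as it was over all genes.

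**Figure D5:**
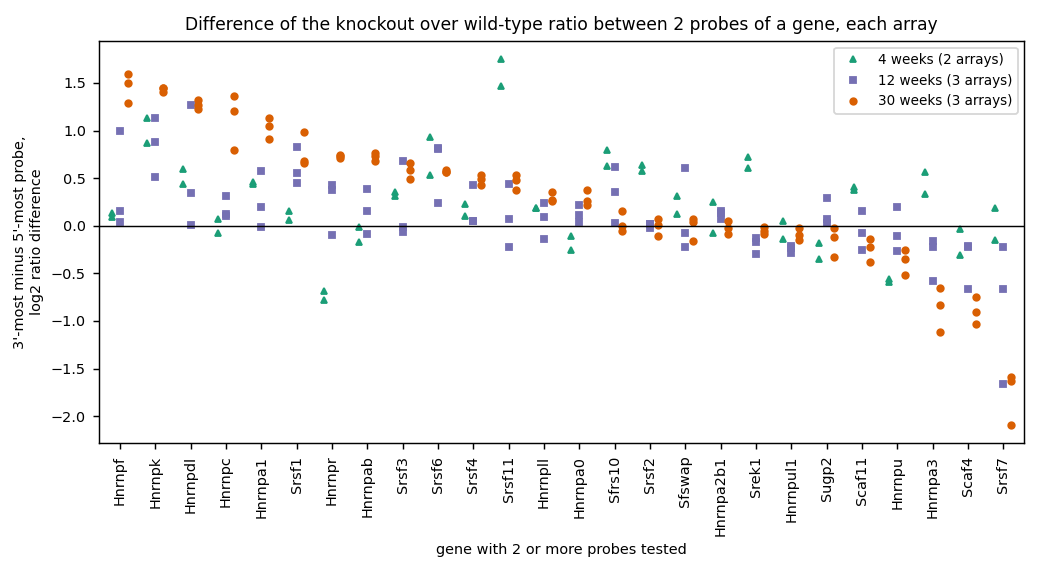
Difference of the log2 knockout over wild-type ratio between the 3′-most and the 5′-most probe (vertical axis) of each of 26 member genes on every array, triangles for 4 weeks, squares for 12 weeks and circles for 30 weeks, genes ordered by the mean at 30 weeks. The circles run from Hnrnpf at 1.29 to 1.59 down to Srsf7 at -2.09 to -1.59.

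The other genes with 3 or more tested probes differed in how far their probes agreed. In Hnrnpab probe 1 fell at 30 weeks (-0.55 ± 0.08), probe 2 rose (0.46 ± 0.12), and probes 3 and 4 read 0.07 and 0.18 and were not called. The 4 probes of Sfswap, the relative of a Drosophila splicing regulator, rose at 30 weeks by 0.48, 0.21, 0.30 and 0.46, and the 3 tested probes of Hnrnpul1 by 0.36, 0.17 and 0.27. In Hnrnpll probes 2 and 3 rose by 0.35 and 0.39, and in Sugp2 probes 2 and 3 fell by 0.46 and 0.32, each with 1 further probe at 0.09 and -0.16 that was not called. Of the 4 Srek1 probes 1 rose at 30 weeks (0.28 ± 0.08), while probes 2, 3 and 4 read -0.32, -0.06 and 0.23 and were not called. Of the 4 Srsf2 probes 2 rose, by 0.39 ± 0.08 and 0.21 ± 0.06, while probes 1 and 4 read -0.12 and -0.13 and were not called.

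Arrays of 12 and 30 weeks resembled each other more in the members than over all probes. Over the 81 probes, the ratios of 12-week replicate 1 correlated with those of the 30-week arrays at r = 0.89, 0.92 and 0.91 (0.63, 0.55 and 0.62 over all probes), those of 12-week replicate 3 at 0.69 to 0.71 (0.32 to 0.33 over all probes), and those of 12-week replicate 2 at 0.37 to 0.45 (0.098 to 0.25). The 3 arrays of 30 weeks correlated with each other at 0.96 to 0.97 in the members. Over all probes replicates 1 and 3 of 30 weeks gave 0.89, replicates 1 and 2 gave 0.45 and replicates 2 and 3 gave 0.43. Replicate 2 of 30 weeks also stood apart in its acinar markers (4.06, against -4.17 and -4.54 in replicates 1 and 3), whose part here was not tested. The arrays of 4 weeks correlated at 0.93 (0.79 over all probes), while a 4-week and a 30-week array gave 0.20 to 0.34 (0.092 to 0.33). A 4-week and a 12-week array gave 0.25 to 0.44 (0.15 to 0.33), with replicate 1 of both ages lower in the members (0.30) than over all probes (0.33). Replicate 1 of 4 weeks with replicates 1 and 3 of 30 weeks gave a lower value in the members (0.26 and 0.20) than over all probes (0.33 and 0.26). These are descriptions over probes, which share arrays, labelling and base composition. The members, more of which were bright, were not matched to all probes in brightness.

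Upstream sequences were looked up because Deaf1 binds TTCG. RefSeq promoters (GRCm38.p6, 250 bases before to 50 after the start) were found for 33 of the 36 gene names. TTCG, searched on both strands as TTCG and CGAA, which can overlap in TTCGAA, was present in 24 of the 33 (72.7%), against 44.8% of 27025 promoters of the table. The members' promoters were also richer in GC, with a median of 65.0% against 52.7%, and how much of the difference that makes was not tested. The upstream 250 bases are shown for the genes with the deepest falls at 30 weeks, Srsf5 (plus strand, chr12:80945249-80945498), Hnrnpc (minus strand, chr14:52104022-52104271) and Srsf1 (plus strand, chr11:88047123-88047372), with TTCG or CGAA in capitals.
Srsf5 upstream: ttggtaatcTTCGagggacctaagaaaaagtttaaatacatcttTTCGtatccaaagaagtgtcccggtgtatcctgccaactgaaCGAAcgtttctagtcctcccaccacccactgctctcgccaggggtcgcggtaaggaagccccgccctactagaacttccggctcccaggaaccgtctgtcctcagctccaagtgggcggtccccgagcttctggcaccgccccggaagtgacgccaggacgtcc
Hnrnpc upstream: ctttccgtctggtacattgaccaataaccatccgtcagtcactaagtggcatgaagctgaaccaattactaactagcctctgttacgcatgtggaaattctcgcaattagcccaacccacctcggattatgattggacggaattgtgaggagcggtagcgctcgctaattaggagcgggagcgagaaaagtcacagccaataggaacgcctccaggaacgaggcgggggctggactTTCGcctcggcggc
Srsf1 upstream: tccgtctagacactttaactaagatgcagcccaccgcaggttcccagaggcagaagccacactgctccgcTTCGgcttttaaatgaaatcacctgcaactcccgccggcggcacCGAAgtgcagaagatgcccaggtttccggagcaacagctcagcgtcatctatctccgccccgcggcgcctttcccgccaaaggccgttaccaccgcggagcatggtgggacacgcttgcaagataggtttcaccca

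Srsf5 has 3 matches in this window, Srsf1 has 2 and Hnrnpc has 1, and the full 300 bases of Hnrnpc hold 2. The promoter of Srsf7, whose probes moved both ways, has 0 matches in its 300 bases. A match is a run of letters and no measured binding site.

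Other genes of the splicing pathway were grouped by role, each given by its brightest tested probe, and no list was tested as a set. At 4 weeks, among probes well above background in both channels of all arrays, 23.0% rose and 12.2% fell. One of the lists, that of SR-related proteins and other regulators, also holds Tra2b, which is a member. At 4 weeks 12 of 18 SR-related proteins and other regulators rose and 0 fell (median 0.72; 13.3% of all probes rose), among them Pnn, a partner of SR proteins, at 1.29 and 1.21, and Bclaf1 at 0.99 and 0.90. Of 10 U1 snRNP and Luc7-like genes, which recognise the 5′ splice site, 5 rose and 0 fell, led by Luc7l3 (1.14 ± 0.11) and Luc7l2 (1.29 ± 0.15). Of 10 kinases and phosphatases of SR proteins 2 rose and 0 fell, Clk1 (0.96 ± 0.11) and Clk4 (0.96 ± 0.13), which phosphorylate the arginine-serine domain. Of 10 genes of nonsense-mediated decay 5 rose, among them Upf2 (0.78 ± 0.08) and Upf3b (0.63 ± 0.07), and 1 fell.

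In the core of the spliceosome and the remaining lists, calls at 4 weeks ran both ways or were few, where 13.3% of all probes rose and 5.92% fell. Of 15 U2 snRNP and U2AF genes 3 rose and 2 fell, of 10 U5 and tri-snRNP genes 3 and 1, of 8 Sm proteins 1 and 1, of 15 hnRNP proteins under other names 4 and 2, and of 9 genes of the exon junction complex and export 0 and 1, the fall being that of Alyref (-0.68 ± 0.13). Snrpb2 (0.62 ± 0.08), Ptbp2 (0.71 ± 0.10) and Rbmx (0.53 ± 0.08) were among the rises.

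At 30 weeks calls in these lists ran both ways, where 19.5% of all probes rose and 20.6% fell. Among probes well above background in both channels of all arrays, 25.4% rose and 27.5% fell. SR-related proteins and other regulators had 8 rises and 4 falls (Khdrbs1 0.72 ± 0.09 and Thrap3 -0.61 ± 0.08), U1 genes 4 and 2, Sm proteins 4 and 2 (Snrpe 0.91 ± 0.08 and Snrpb -1.09 ± 0.12), U2 genes 4 and 6, U5 genes 1 and 4 (Prpf6 -0.83 ± 0.15), hnRNP proteins under other names 3 and 3 (Raly -0.71 ± 0.08 and Khsrp 0.76 ± 0.14), nonsense-mediated decay 3 and 4 (Upf3b 0.81 ± 0.06), the exon junction complex and export 1 and 5 (Eif4a3 -0.63 ± 0.09) and the kinases and phosphatases 1 and 4 (Prpf4b 0.97 ± 0.13 and Ppp1ca -0.59 ± 0.10). At 12 weeks 1.51% of all probes rose and 1.84% fell. SR-related proteins and other regulators then had 3 rises and 0 falls, Sm proteins 2 and 1, and U1 genes 2 and 1. These calls were led by Luc7l2 (0.73 ± 0.12), Snrpe (0.66 ± 0.08) and Tial1 (-0.45 ± 0.07). Nonsense-mediated decay and the exon junction complex and export had 1 rise and 0 falls each. The kinases and phosphatases, U2 genes, U5 genes and hnRNP proteins under other names had 0 calls.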

How the data were processed

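Per the file headers, the authors' scanner files come from Agilent Feature Extraction, version 9.5.3.1 for 4 weeks and 10.2.1.3 for 12 and 30 weeks, and hold a spot intensity and local background for each dye, with a processed log10 ratio. The authors' deposited value table holds log2 ratios that match the scanner's. Each knockout sample and its wild-type pool gave 1 ug of total RNA, which was amplified and labelled, per the labels' protocols.

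Intensities were corrected with normexp (offset 50) and normalized by loess within arrays in limma 3.58.1 (R 4.3.3), with no weight on control spots, and repeat spots were averaged to 1 value a probe. A probe was tested where 1 channel cleared the scanner's background test on every array of some age (27464 of 41174). Means per age over all 8 arrays were fitted with lmFit and eBayes (two-sided, 5 residual degrees of freedom). Channel levels are log2 values after loess and Aquantile scaling. The p-values measure the spread between arrays only, and the number of arrays limits the precision. On simulated data the fit recovered 77.0%, 85.0% and 85.5% of 200 changed probes at 4, 12 and 30 weeks. Of its calls 1.91%, 5.03% and 3.93% were false. The simulated noise was normal and independent between arrays, with each probe's own spread and no slide, dye or pool effect. These rates therefore check the fit itself and do not give its power or error in these data.

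Members and lists were chosen with earlier results of these data known. Named with values are, in each contrast, up to 6 called probes with the largest rise and 6 with the largest fall. Other probes of those genes, and genes with 3 or more probes, are given at some ages and not in every contrast. Up to 2 called genes a list with the smallest p are named too, and a few further member probes were named after their values were seen. Alternatives were the scanner's log ratio, median centring, another offset, filters, 1 probe per gene, the authors' table, slide, GC content and replicate number.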

Additional observations from a re-analysis of the deposited data

Results flagged for a closer look

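The ratio of several member probes differed between ages by limma's test of the difference itself. At 12 against 4 weeks the ratio was lower for Srsf11 probe 3 (-1.32), Hnrnpa3 probes 2, 3 and 4 (-1.22, -1.20 and -0.97), Srsf1 probe 1 (-1.11) and Hnrnph2 (-0.97). At 30 against 4 weeks it was lower for Srsf5 (-2.32), Srsf1 probe 1 (-1.62), Hnrnpc probe 1 (-1.59), Hnrnpf probe 1 (-1.51) and Hnrnpa3 probes 3 and 4 (-1.39 and -1.27). It was higher at 30 than at 4 weeks for Hnrnpr probe 2 (0.75), Hnrnpl (0.67), Sfswap probe 1 (0.57) and Scaf4 probe 1 (0.54), and higher at 30 than at 12 weeks for Hnrnpr probe 2 (0.61). Without 1 array in turn, the calls of Scaf4 probe 1 and of Hnrnpr probe 2 against 12 weeks were lost in 6 of 8 repeats and those of Srsf5, Hnrnpl and Sfswap probe 1 in 3 of 8. The arrays of 4 weeks had a slide and a scanner of their own, so that age, slide and scanner cannot be told apart in the differences from 4 weeks.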

How the results depend on the processing

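Of 44 named calls, 22 kept their call in all 8 repeats without 1 array. Leaving out each array in turn gave 12 to 39 member calls at 4 weeks, 0 to 18 at 12 weeks and 29 to 60 at 30 weeks, 0 to 25 for 12 minus 4 weeks, 0 to 23 for 30 minus 12 and 14 to 44 for 30 minus 4, and for the 3′ minus 5′ difference 4 to 13, 1 to 9 and 15 to 19 genes at 4, 12 and 30 weeks. Calls numbered 36, 7 and 54 at the 3 ages and 23, 1 and 36 in the differences in that order. Median centring gave 64 at 4 weeks, 62 at 12 weeks, 2 for 12 minus 4 and 0 for 30 minus 12, with the median of all probes at 0.39, 0.34 and 0.11. It turned Srsf9 at 4 weeks to 0.30, Hnrnpf probe 1 at 12 weeks to 0.0932 and Sfswap probe 1 for 30 minus 4 weeks to -0.0070, none of them called. The brightest probe per gene, which tests fewer probes, gave 23, 2 and 21 at the ages and 15, 0 and 17 in the differences.

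At 12 weeks the scanner's log ratio and the authors' table gave 2 each, an offset of 10 gave 4, slide as a fixed block 1, slide as a random block 59 and the arrays of the age alone 0. At 30 weeks a fixed slide block gave 5, and for 30 minus 4 weeks 7. For 12 minus 4 weeks the random block gave 38 and the arrays of both ages alone 8. For 30 minus 12 weeks 0 were called with the scanner's log ratio, the authors' table, the offset of 10, the fixed block and the arrays alone, 2 with no filter, the strict filter or GC adjustment, and 16 with the random block, whose estimated correlation was -0.26. The replicate numbers were not taken to pair the samples: same-numbered arrays deviated together with r of -0.05, -0.0046 and 0.03 between 12 and 30 weeks and 0.05 and -0.08 between 4 and 12 weeks, though with 0.23 and 0.16 between 4 and 30 weeks. With the replicate block the calls were 1 at 12 weeks, 12 for 12 minus 4 and 0 for 30 minus 12, and with GC adjustment in the same fit 0, 12 and 0, and 34 at 30 weeks. The 3′ minus 5′ difference, called in 11, 4 and 19 genes, gave 17 and 12 with median centring at 4 and 12 weeks, 2 with the scanner's log ratio at 12 weeks, and 3, 2 and 7 with RefSeq accessions alone, which leave 8 member genes. Except where the construction is named, the cause was not tested. No share of all probes stands beside the counts of this section, so none is a result about the members as against other probes.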
